A study of Mus musculus with 6 samples.

Results

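The nuclear receptors CAR (Nr1i3) and PXR (Nr1i2), the enzyme that passes electrons to microsomal cytochromes P450 (Por), and 7 cytochrome P450 genes of the Cyp2b, Cyp3a and Cyp2a subfamilies were examined in mouse liver. The 10 genes were chosen by name, and their probes were found through the RefSeq accession that the array files give for each probe. They had 12 probes among the 56605 on the array, and they were 10 of the 22911 genes that could be given a symbol. The study compared the livers of male mice, 12 weeks old, kept for 4 weeks on 1 of 2 diets. The control group (n = 3) ate 100% granulated regular food, and the soy group (n = 3) ate a mixture of 75% regular food and 25% soy bean powder. The strain was not given in the sources used here, and no gene was altered or drug given in either group. Total RNA from the right hepatic lobe of each mouse was hybridized in 1 colour to an Agilent mouse expression array, so that 1 array stands for 1 mouse. Values are normalised signals on the log2 scale, and a difference of 1 is a doubling. A probe was said to have passed when limma, fitted to all 56605 probes with Benjamini-Hochberg adjustment, gave an adjusted p under 0.05 together with a fold of more than 1.5 or less than 0.66. Genes were counted as passed on the strength of any 1 probe, and 0.35% of all probes passed. Where a gene had several probes, the one with the highest mean signal, its brightest probe, is given first.

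CAR and PXR are ligand-activated or ligand-influenced transcription factors of hepatocytes that bind DNA together with a retinoid X receptor and switch on genes for the oxidation, conjugation and export of drugs, bile acids and steroids. CAR is held in the cytosol until it is dephosphorylated, a step that signalling through the EGF receptor opposes. Mouse Cyp2b10 is the textbook target of CAR and Cyp3a11 that of PXR, although each receptor can act on the targets of the other.

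The upstream sequences of the Cyp2b genes and of Cyp3a11 and Cyp3a25 are shown because the receptors act through pairs of a short hexamer, and because they make visible how alike neighbouring genes of these clusters are. They were taken from RefSeq (GRCm38.p6), in which all 10 genes were found, and run 5′ to 3′ on the strand of the gene up to the base before its outermost annotated base. For Cyp2b9, Cyp2b13 and Cyp3a25 that base lies upstream of the transcript start from which positions are counted, so their stretches are shorter. The window of Cyp3a13 lies wholly inside the annotated gene, and none is shown for it. Capitals mark matches on either strand to AGGTCA or AGTTCA and, in Cyp3a11, to a direct repeat of AGNTCA with any 4 bases between the copies.
Cyp2b10, chr7:25897408-25897657, plus strand: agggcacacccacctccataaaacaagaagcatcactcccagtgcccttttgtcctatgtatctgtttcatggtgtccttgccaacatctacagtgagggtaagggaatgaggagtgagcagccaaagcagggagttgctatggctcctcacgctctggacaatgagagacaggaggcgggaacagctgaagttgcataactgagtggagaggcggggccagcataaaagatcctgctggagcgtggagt
Cyp2b9, chr7:26173159-26173349, plus strand: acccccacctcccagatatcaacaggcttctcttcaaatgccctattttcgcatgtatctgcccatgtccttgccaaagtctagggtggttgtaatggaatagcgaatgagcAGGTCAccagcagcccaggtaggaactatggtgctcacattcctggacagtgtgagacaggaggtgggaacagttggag
Cyp2b13, chr7:26061245-26061387, plus strand: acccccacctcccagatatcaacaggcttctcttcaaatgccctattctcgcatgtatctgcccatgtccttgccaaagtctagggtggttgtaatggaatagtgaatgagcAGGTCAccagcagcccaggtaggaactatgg
Cyp3a11, chr5:145879855-145880104, minus strand: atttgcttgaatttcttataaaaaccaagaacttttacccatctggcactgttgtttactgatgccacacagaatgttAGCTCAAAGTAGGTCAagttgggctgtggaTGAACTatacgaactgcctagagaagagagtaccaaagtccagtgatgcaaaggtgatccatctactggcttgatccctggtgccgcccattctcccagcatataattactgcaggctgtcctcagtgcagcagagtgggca
Cyp3a25, chr5:146009645-146009868, minus strand: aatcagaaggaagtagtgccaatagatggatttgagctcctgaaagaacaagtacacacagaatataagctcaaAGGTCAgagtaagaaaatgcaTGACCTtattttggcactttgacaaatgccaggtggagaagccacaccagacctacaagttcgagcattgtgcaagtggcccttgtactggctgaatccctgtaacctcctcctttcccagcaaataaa
Counted backwards from the transcript start of the RefSeq window, AGGTCA lay at -138 to -133 in both Cyp2b9 and Cyp2b13, and the window of Cyp2b10 held neither hexamer. In Cyp3a11 the direct repeat with a spacer of 4 bases covered -172 to -157 and took in the AGGTCA at -162 to -157, and a reverse-strand AGTTCA followed at -142 to -137. Cyp3a25 held AGGTCA at -176 to -171 and, on the reverse strand, at -155 to -150. Of 32817 windows of 300 bases around annotated starts, 16.3% held AGGTCA and 14.0% held AGTTCA on either strand, whereas 0.12% held the direct repeat with a spacer of 4. A match gives the presence of letters and not of a bound receptor, and known enhancers of these genes that lie farther upstream were outside the windows. Over 300 bases the windows of Cyp2b9 and Cyp2b13 were identical at 298 positions (99.3%), while Cyp2b9 and Cyp2b10 were identical at 220 of 289 aligned positions (76.1%) and Cyp3a11 and Cyp3a25 at 166 of 263 (63.1%). Transcripts of such neighbours can be near-identical too. Whether an array probe named for 1 of them also binds another was not tested here, and the values of Cyp2b9 and Cyp2b10, and those within the Cyp3a cluster, are uncertain to that extent.

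The RNA had the markers of its labelled tissue. All 11 hepatocyte markers on the array, among them albumin and transthyretin, were well above background on all 6 arrays, and their mean signal lay between 17.85 and 17.91 on the control arrays and between 17.71 and 17.78 on the soy arrays. Slide 1 carried control 1, control 2 and soy 1, slide 3 carried control 3 with soy 3, and soy 2 was alone on slide 2. Control 1, 2 and 3 had 37010, 36366 and 38163 spots well above background, and soy 1, 2 and 3 had 31308, 31988 and 32498, so every control array had more of them than any soy array. The part of this difference in the results was not tested. In whole liver, fewer cells that express a gene and less RNA per cell cannot be told apart.

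Of the 10 genes, Nr1i3 alone passed, by 1 of its 2 probes, and it was higher in soy livers. Over all genes 0.532% passed, 0.34% with a higher and 0.192% with a lower signal on soy, so 1 in 10 rests on a single gene. By brightest probe, Nr1i3, Cyp3a11 and Cyp3a25 lay higher on all soy arrays than on all control arrays, and Por lay lower. Among all genes, 9.66% were higher and 10.8% lower without overlap. Of all 22911 genes, 13514 were well above background on all arrays, beside 9 of the 10. The shares over all genes thus include many genes near background and are not those of genes of like signal. The remaining 6 of the 10 genes overlapped between the diets. The 10 changes were split evenly, 5 above and 5 below 0, with a median of 0.08 (log2) beside -0.0057 over all genes. Those below 0 include Cyp2b13, which was well above background on no array. Its sign is not a measured change, and the even split and the median depend on it. In 4 of the 10 genes the unadjusted limma p was under 0.05, beside 14.2% of all genes.

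**Figure D1:**
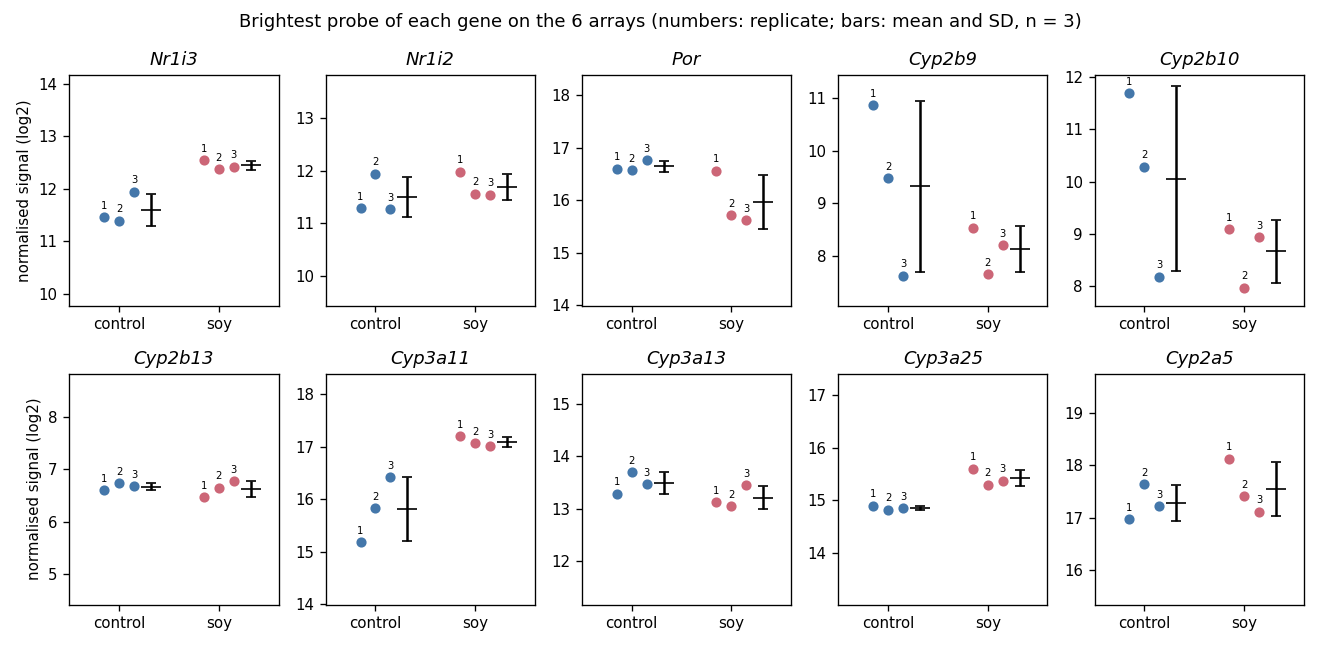
Normalised signal (log2, vertical axis of each panel) of the brightest probe of the 10 genes in control and soy livers, with 1 point per array numbered by replicate and bars for the mean and SD (n = 3). The soy arrays lie above all control arrays for Nr1i3, Cyp3a11 and Cyp3a25 and below them for Por, and the control arrays of Cyp2b9 and Cyp2b10 are spread over more than 3 log2 units.

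Nr1i3 encodes CAR. Its brightest probe (NM_009803) read 11.46, 11.40 and 11.95 in control livers and 12.55, 12.38 and 12.42 in soy livers. The lowest soy array was thus above the highest control array, and control 3 lay nearest to the soy arrays. The mean went from 11.60 ± 0.30 to 12.45 ± 0.090 (SD, n = 3), a difference of 0.85 (SE 0.16, 95% interval 0.48 to 1.22) or 1.80-fold, with a limma adjusted p of 0.0880, which misses the threshold. The probe for another transcript of the gene (NM_001243062) read 9.36, 9.37 and 9.70 in control livers and 10.30, 10.44 and 10.32 in soy livers. It rose by 0.87 (SE 0.12, 95% interval 0.59 to 1.16), or 1.83-fold, and passed with a limma adjusted p of 0.0427. Both probes gave almost the same difference, and the second had the smaller error. On slide 1, soy 1 exceeded the mean of control 1 and control 2 by 1.12 on the brightest probe and by 0.93 on the other. On slide 3, soy 3 exceeded control 3 by 0.48 and by 0.62. The diets did not overlap on either probe, so the direction within a slide was fixed beforehand and tests nothing. With slide as a block the probe that passed gave 0.80 and a limma adjusted p of 0.170. Its call also ended in limma fits without control 1 (adjusted p = 0.105), control 2 (0.152), soy 1 (0.108), soy 2 (0.161) or soy 3 (0.142), and held without control 3 (0.0364). Each of these fits had 1 mouse fewer, and the difference ran from 0.82 to 0.99, beside 0.87 with all arrays.

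Nr1i2 encodes PXR, the receptor that binds the widest range of drugs and steroids. Its probe (NM_010936) read 11.29, 11.94 and 11.27 in control livers and 11.98, 11.56 and 11.54 in soy livers. Control 2 and soy 1 were the high arrays, and the groups overlapped. The difference was 0.19 (SE 0.21, 95% interval -0.30 to 0.68, limma adjusted p = 0.776), and the interval holds both 0 and a rise of 1.5-fold. It was 0.37 on slide 1 and 0.27 on slide 3. With 1 array left out it ran from 0.05 (without soy 1) to 0.41 (without control 2).

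Por encodes NADPH-cytochrome P450 oxidoreductase, on which all microsomal P450 enzymes depend. Its probe (NM_008898) read 16.60, 16.58 and 16.76 in control livers and 16.56, 15.72 and 15.61 in soy livers. Soy 2 and soy 3 were low, whereas soy 1 lay just under the lowest control array. The difference was -0.68 (SE 0.24, 95% interval -1.24 to -0.13, limma adjusted p = 0.331), and it did not pass. On slide 1 the difference was -0.03 and on slide 3 it was -1.15, so the slides gave unequal values. Without soy 1 it came to -0.98 with a limma adjusted p of 0.0621. Without soy 3 it was -0.51 (limma adjusted p = 0.574), and with slide as a block it was -0.51 (limma adjusted p = 0.508).

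The Cyp2b enzymes hydroxylate barbiturates, steroids and fatty acids, and the signals of Cyp2b10 and Cyp2b9 varied more among the control mice than between the diets. Cyp2b10 (NM_009999, brightest probe) read 11.69, 10.28 and 8.19 in control livers and 9.10, 7.98 and 8.93 in soy livers. Before normalisation the median spot intensities were 4054, 1282.5 and 289.5 in control livers and 551, 251 and 511 in soy livers. Control 1 and control 2 were high, and control 3 lay among the soy arrays. The control SD was 1.76, larger than that of 99.9% of the 13499 genes that were well above background on all arrays and whose brightest probe had a value on each of them after outlier spots were left out, whose median control SD was 0.16. The soy SD was 0.60. The difference between the means, 10.05 and 8.67, was -1.38 (SE 0.78, 95% interval -3.21 to 0.44, limma adjusted p = 0.561), and did not exceed the spread between arrays. It was -1.89 on slide 1 and 0.75 on slide 3, in opposite directions. The second probe of the same accession read 8.73, 7.35 and 6.79 in control livers and 6.42, 6.73 and 6.71 in soy livers, and it was well above background on no soy array. Control livers were at least 2.00-fold higher on this probe (limma adjusted p = 0.439), where the bound concerns the background alone. With the spread between arrays, the 95% interval of the log2 difference ran from -2.01 to 0.0085 and held 0. A bound of this kind sets the mean of the bright group against the higher of the lowest signal well above background on each dim array and the signal of the probe there. On each soy array the signal of the probe was the higher, so the bound equals the fitted fold. Without control 1 the fitted log2 difference was -0.45, and without control 3 it was -1.42. On slide 3 this probe gave -0.08. These values are set against background signal on the soy arrays and are not exact differences.

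Cyp2b9, a female-biased relative, followed the same arrays. It read 10.87, 9.48 and 7.62 in control livers and 8.53, 7.65 and 8.19 in soy livers (NM_010000). Control 1 and control 2 were again the highest, then soy 1 and soy 3, and only the order of the lowest pair, control 3 and soy 2, differed from that of Cyp2b10. The control SD of 1.63 was also larger than that of 99.9% of the genes. The difference was -1.20 (SE 0.71, 95% interval -2.86 to 0.46, limma adjusted p = 0.584), with -1.64 on slide 1 and 0.57 on slide 3. Leaving out 1 control array moved these values in either direction. Without control 1 the difference was -0.57 for Cyp2b10 and -0.42 for Cyp2b9, and without control 3 it was -2.32 and -2.05, with limma adjusted p of 0.135 and 0.139. On the control arrays the mean signal of 10 stellate cell markers was highest on control 1, though that of Dcn, the brightest of them, was not. The mean signal of 15 Kupffer cell and leukocyte markers was lowest on control 1 (10.85) and highest on control 3 (11.52). On these arrays the order was opposite to that of Cyp2b10 and Cyp2b9 and the same as that of Cyp3a11. On soy 1, 2 and 3 the Kupffer cell and leukocyte mean was 11.03, 11.29 and 11.48. That order was opposite to the order of Cyp3a11 there, and it was not opposite to that of Cyp2b10 or Cyp2b9. The part of either list in these values was not tested. Cyp2b13, which is also female-biased, was well above background on no array of these males, and no change is read from its signal. Its readings ranged from 6.61 to 6.73 on the control arrays and from 6.47 to 6.78 on the soy arrays.

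**Figure D2:**
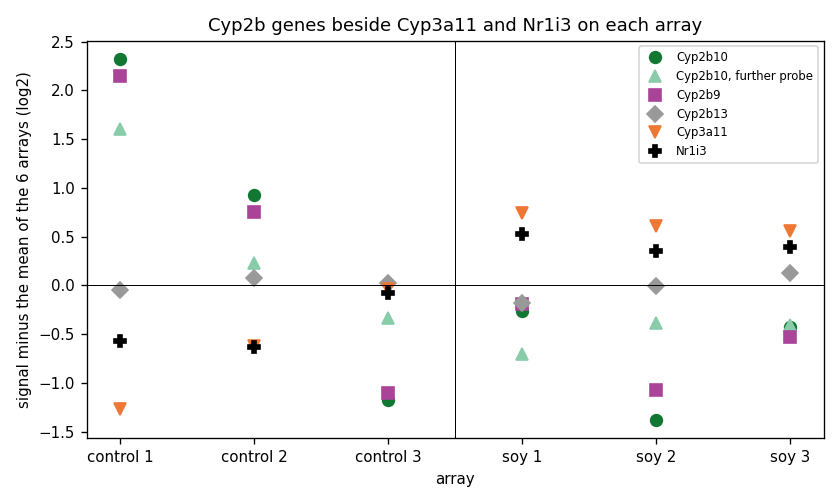
Signal of each probe minus its own mean over the 6 arrays (log2, vertical axis) on the 3 control and the 3 soy arrays (horizontal axis), with 1 marker per probe. The brightest probes of Cyp2b10 and Cyp2b9 lie close together on every array and are highest in control 1. The further Cyp2b10 probe is also highest there but lies apart from them on several arrays. Cyp3a11 and Nr1i3 lie above their means on all soy arrays.

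Of the 3 Cyp3a genes, which metabolise many drugs, bile acids and steroids, Cyp3a11 and Cyp3a25 were higher on every soy array and Cyp3a13 was not. Cyp3a11 (NM_007818) read 15.19, 15.84 and 16.42 in control livers and 17.20, 17.07 and 17.02 in soy livers. The soy arrays lay close together, and the control arrays were spread out with control 1 lowest, the array on which Cyp2b10 was highest. The mean went from 15.82 ± 0.62 to 17.09 ± 0.096 (SD, n = 3), and the control SD was larger than that of 97.4% of the genes. The difference was 1.28 (SE 0.28, 95% interval 0.64 to 1.92), or 2.43-fold, with a limma adjusted p of 0.127, so the gene did not pass. It was 1.69 on slide 1 and 0.59 on slide 3, and 1.22 with slide as a block (limma adjusted p = 0.318). Without control 3 it was 1.58 and passed (limma adjusted p = 0.0470). Without control 1 it was 0.97 (limma adjusted p = 0.146), and the gene passed in no other fit that left out 1 array.

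Cyp3a25 (NM_019792) read 14.90, 14.82 and 14.85 in control livers and 15.60, 15.29 and 15.37 in soy livers. The control arrays were nearly equal, with an SD of 0.038, and 4.54% of genes had a smaller one. The difference was 0.56 (SE 0.11, 95% interval 0.31 to 0.82), or 1.48-fold, with a limma adjusted p of 0.102, and its size was also under the fold limit. It was 0.74 on slide 1 and 0.52 on slide 3. Cyp3a13 (NM_007819), a member of the subfamily that lies apart from the others on chromosome 5, read 13.29, 13.70 and 13.47 in control livers and 13.13, 13.05 and 13.46 in soy livers. The groups overlapped. The difference was -0.28 (SE 0.15, 95% interval -0.63 to 0.08, limma adjusted p = 0.551). It was -0.37 on slide 1 and -0.02 on slide 3, and with 1 array left out it ran from -0.40 to -0.17.

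Cyp2a5 hydroxylates coumarin and nicotine and is known as a target of both receptors. Its probe (NM_007812) read 16.97, 17.65 and 17.23 in control livers and 18.13, 17.42 and 17.12 in soy livers. Soy 1 was the highest array, and the other two soy arrays lay within the control range. The difference was 0.27 (SE 0.27, 95% interval -0.36 to 0.91, limma adjusted p = 0.753). Without soy 1 it was -0.01, and within slides it was 0.82 on slide 1 and -0.11 on slide 3.

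**Figure D3:**
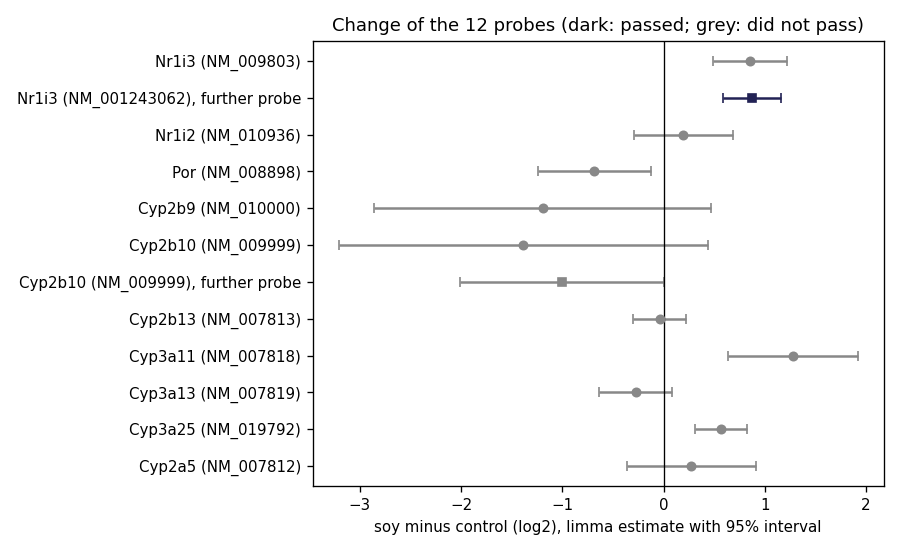
Difference between soy and control (log2, horizontal axis) with its 95% interval from limma for each of the 12 probes, named by gene and accession on the vertical axis; squares mark further probes of a gene. The second Nr1i3 probe passed, and the intervals of the Cyp2b9 and Cyp2b10 probes are the widest.

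The rest of the Cyp2a, Cyp2b and Cyp3a subfamilies showed where the higher signals lay. On the array were 10 of the 11 other genes listed, and none passed, with 8 differences above 0 and a median of 0.31. Of the 10, 7 were well above background on all arrays and 1 (Cyp2b23) on none. The count above 0 and the median therefore rest partly on background signal. Cyp3a16 (14.57, 15.28 and 15.54 on control, 16.49, 16.49 and 16.25 on soy) differed by 1.28 (SE 0.23, limma adjusted p = 0.0840). Cyp3a59 (14.78, 15.21 and 15.63 on control, 16.44, 16.38 and 16.45 on soy) differed by 1.22 (SE 0.20, limma adjusted p = 0.0625). Of the 8 Cyp3a genes measured in all, 6 lay higher on every soy array, namely Cyp3a11, Cyp3a25, Cyp3a16, Cyp3a59, Cyp3a41a and Cyp3a57, beside 9.66% of all genes. These 6 probes may share targets, so they are not independent measurements, and the genes were listed with earlier results of these data known. Cyp3a41a differed by 0.80 (limma adjusted p = 0.171) and Cyp3a57 by 0.62 (0.0841), whereas Cyp3a44 was well above background on 1 array alone. In the Cyp2a subfamily the values went both ways, with 0.31 for Cyp2a4 and -0.56 for Cyp2a12, neither of which passed.

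The receptor partners and coregulators (18 of 18 listed genes on the array) had a median of -0.07, and 1 of them passed, beside 0.532% of all genes. This list too was written with earlier results of these data known, so its share is not a test. Rxrg, a retinoid X receptor and so a possible DNA-binding partner of both receptors, read 7.85, 8.18 and 8.34 in control livers and 9.34, 9.87 and 9.50 in soy livers. It rose by 1.44 (SE 0.18, limma adjusted p = 0.0294), or 2.72-fold. Neither Rxra nor Rxrb passed. Foxo1, a coactivator of both receptors, differed by -0.41 (SE 0.21, limma adjusted p = 0.518), and by -0.39 (0.376) on its second probe.

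Of the genes that hold CAR in the cytosol or govern its activation (11 of 12 listed), 1 passed, beside 0.532% of all genes, and the median was 0.0013, beside -0.0057 over all genes. The list was likewise written with earlier results known, and its share is not a test. Egfr, the receptor whose signalling keeps CAR phosphorylated and inactive, read 15.35, 15.77 and 15.27 in control livers and 14.23, 14.29 and 14.14 in soy livers (NM_207655). It fell by 1.24 (SE 0.14, limma adjusted p = 0.0248). A second probe of this accession fell by 1.09 (0.0115), and the probe of NM_007912 differed by -0.43 and did not pass (0.464). Fkbp4, a cochaperone of HSP90, differed by 0.26 (0.309) on its brightest probe and by 0.025 (0.965) on the other.

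None of the 7 genes that bring electrons or haem to P450 enzymes passed, and their median was -0.12. Alas1, the first enzyme of haem synthesis and a target of both receptors, was lower on every soy array by its brightest probe, which read 17.14, 17.06 and 17.31 on control and 16.73, 15.93 and 16.42 on soy. The difference was -0.81 (SE 0.20, limma adjusted p = 0.163), and its 2 further probes gave -1.15 and -1.21 without passing. Cyb5b, a cytochrome b5 of the outer mitochondrial membrane, differed by 0.52 (SE 0.11, limma adjusted p = 0.124), and by 0.31 (0.355) on its second probe.

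Among the other known targets of CAR and PXR, 5 of 44 genes on the array (48 listed) rose in soy livers and none fell, beside 0.34% of all genes that rose and 0.192% that fell. The median of the list was 0.08. Apart from Htatip2, they act in epoxide hydrolysis, conjugation and export. Ephx1, microsomal epoxide hydrolase, read 16.45, 15.82 and 16.46 on control and 17.43, 17.51 and 17.45 on soy, a rise of 1.22 (SE 0.18, limma adjusted p = 0.0473). Abcc3, which exports glucuronides into the blood, read 14.08, 14.04 and 14.01 on control and 14.91, 14.78 and 14.93 on soy, a rise of 0.82 (SE 0.095, limma adjusted p = 0.0242). Ugdh, which makes the donor for glucuronidation, rose by 1.05 (SE 0.15, limma adjusted p = 0.0405). In each of these genes the control and soy arrays stood clear of each other. Gstm1, a glutathione transferase, rose by 0.95 (SE 0.13, limma adjusted p = 0.0405) and its second probe by 1.19 (0.0286). Htatip2 rose by 1.54 (SE 0.19, limma adjusted p = 0.0304) and its second probe by 1.41 (0.0164). Second probes of Abcc3 and Ugdh differed by 0.74 (0.0819) and 1.21 (0.0681) and did not pass. Several of these genes are targets of other factors as well, NRF2 among them, and which factor acted was not tested.

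Other targets went the opposite way without passing. Of the 44, 17 were higher and 11 lower on every soy array than on every control array, beside 9.66% and 10.8% of all genes. Of these 44, 41 were well above background on all arrays, beside 13514 of all 22911 genes, so the shares are not of genes of like signal. Por and Alas1 are among the 11 lower. Among the lower ones, picked after their values were seen, were the CAR targets Cyp2c37 (-0.82, limma adjusted p = 0.147), Cyp2c50 (-0.81, 0.0714, and -0.36, 0.513 on its second probe) and Cyp2c54 (-0.81, 0.125).

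**Figure D4:**
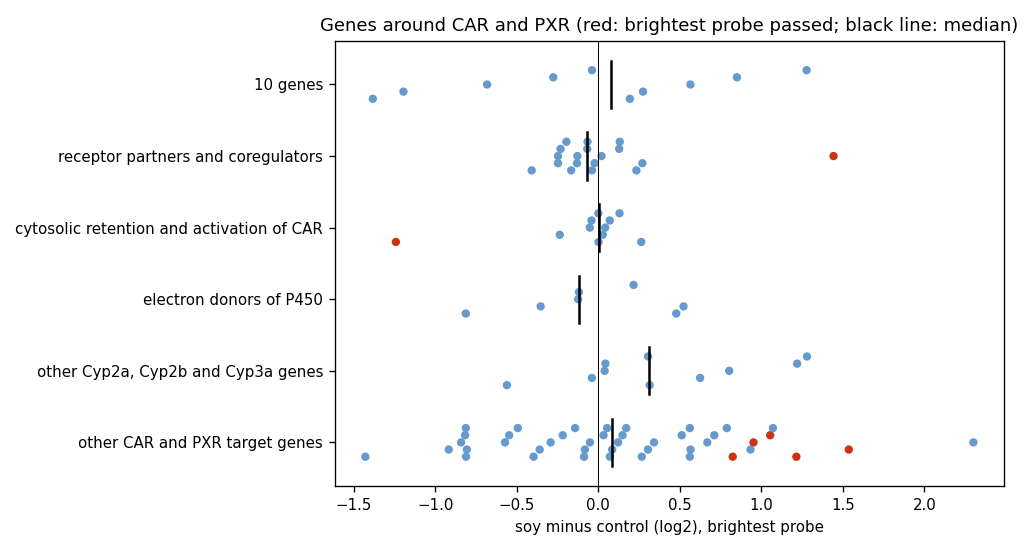
Difference between soy and control (log2, horizontal axis) of each gene by its brightest probe, for the 10 genes and for 5 lists of genes around CAR and PXR (vertical axis), with 1 point per gene, red where that probe passed and a black line at the median. Each list straddles 0, the highest median is 0.31, and the points that passed are Rxrg, Egfr and 5 target genes. Por, which is also a listed target, is drawn among the 10 genes only.

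Counted once each and without the 10, 88 genes of the 5 lists were on the array, of which 6 rose and 1 fell, beside 0.34% and 0.192% of all genes. The median of the 88 was 0.04, beside -0.0057 over all genes. Because the lists were written with earlier results known, these shares are not a test. Of the 88, 82 were well above background on all arrays, beside 13514 of all 22911 genes. The number of calls changed with the arrays used. A fit without 1 array has fewer mice, so a lost call alone does not single out the array left out. In limma fits without 1 array, 5 of the 88 genes passed without control 1, 3 without control 2, 7 without control 3, 1 (Egfr) without soy 1, and none without soy 2 or without soy 3, where 25 and 27 of all probes passed. With slide as a block none of the 88 passed, and 25 of all probes did. Soy 2, alone on slide 2, adds nothing to the comparison of the diets in that fit. Within slides the difference was 0.85 on slide 1 and 0.92 on slide 3 for Abcc3, and -1.33 and -1.13 for Egfr. The diets did not overlap in these genes, so the direction within a slide was fixed beforehand and tests nothing.

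**Figure D5:**
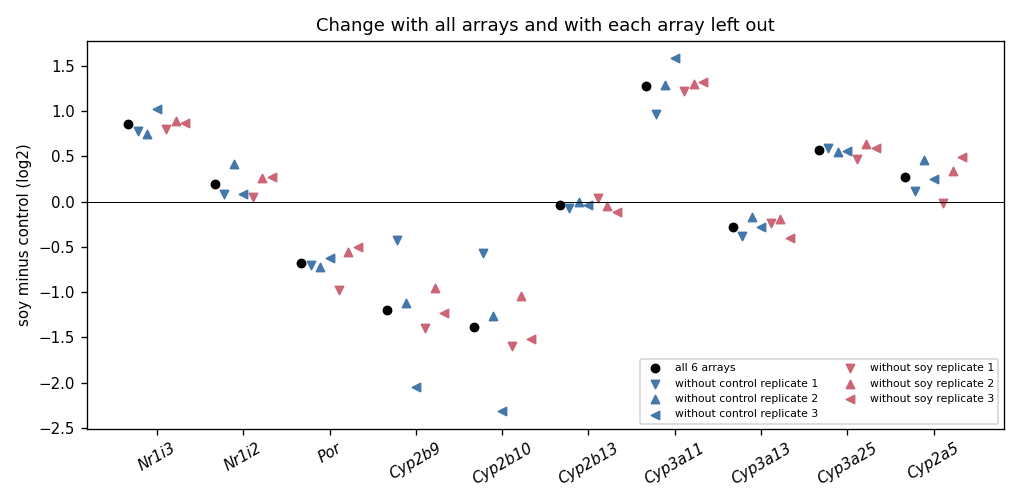
Difference between soy and control (log2, vertical axis) of the brightest probe of each of the 10 genes (horizontal axis) with all 6 arrays (black) and with each array left out in turn (blue for control, red for soy). Cyp2b9 and Cyp2b10 move most, down to -2.05 and -2.32 without control 3, while Nr1i3, Cyp3a11 and Cyp3a25 stay above 0.

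The genes whose brightest probes followed that of Nr1i3 most closely were sought among the 82 genes of the 5 lists that were well above background on all 6 arrays. They were Cyp3a59 (Pearson r = 0.97 over 6 arrays), Ugdh (0.96), Ugt2b34 (0.96), Ugt2b36 (0.95) and Aldh1a1 (0.95). The 6 arrays fall into the 2 diets, which all the points share, and the values are given as a description.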

How the data were processed

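The authors scanned 1-colour arrays of 62976 spots and deposited, per the file headers, Feature Extraction 11.5.1.1 output with the median intensity of spots and their surroundings, extracted from the scans without scaling between arrays, and a processed intensity with background subtracted. The log2 table that the authors deposited beside it has array medians of 7.33 to 7.34, and no value in it was farther than 0.071 from its counterpart here. The paper's methods name median signals, limma and Benjamini-Hochberg adjustment without naming a normalization.

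Intensities were corrected by normexp with an offset of 50 and, after removal of 3671 control spots, quantile normalized and taken to log2. Outlier spots were set aside and repeated spots averaged per probe. The 56605 probes were fitted with limma 3.58.1 in R 4.3.3, soy against control, without covariates. The number of arrays, 3 mice per group by the labels, limits the precision. RefSeq accessions (GRCm38.p6) gave symbols to 32994 probes (58.3%). The array was designed on another build, so probe positions are not given. Upstream sequences, cut to the part outside the annotated gene, were searched and aligned with Python 3.11.15 and Biopython 1.88, and plots were made with matplotlib 3.10.9.

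The 16 gene lists, of which the 10 genes are 1, hold 219 genes and were chosen with earlier results of these data known. From each list the genes that passed are named (at most the 5 largest changes) or, where fewer than 2 passed, the 2 largest changes among genes well above background throughout a group; some of the latter are left out for brevity. Genes outside this rule were named after their values were seen. Alternatives changed the background correction (none, or an offset of 16), the input (the processed signal with 75th-percentile scaling, or the deposited log2 table), the scaling (75th-percentile shift, cyclic loess), the probes (outliers kept, probes well above background only, probes of a gene averaged), the model (trend and robust eBayes, replicate number as a block, slide as a block), the threshold (adjusted p alone) or left out 1 array. The fit was tested on simulated data.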

Additional observations from a re-analysis of the deposited data

How the results depend on the processing

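With 1 array left out, 0 to 2 of the 10 genes passed, 0 to 7 of the 88 other genes, and 25 to 203 of all probes, beside 1, 7 and 198 with all arrays. Without control 3, Nr1i3 (brightest probe 1.02, limma adjusted p = 0.0357) and Cyp3a11 (1.58, 0.0470) passed. With an offset of 16 the counts were 0, 2 and 77. With slide as a block they were 0, 0 and 25. With processed signals and 75th-percentile scaling, which changes the input and the scaling together, they were 3 (Nr1i3, Cyp3a11 and Cyp3a25), 27 and 13138, of which 11924 were higher on soy and 1214 lower, beside 118 and 80 of the 198. That setting moved the median difference of all probes to 0.13, and the 75th-percentile shift of the normexp values alone, with 299 probes (202 higher, 97 lower), moved it to 0.13 as well. Among probes well above background alone, 15 of the 88 genes and 496 of 32380 probes passed, beside 198 of 56605 in the main fit. Nr1i3 was among them by its brightest probe (0.85, limma adjusted p = 0.0470), and Cyp2b13 had no value. With the probes of each gene averaged, 0 of the 10 genes passed. The cause of these shifts was not tested.

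Cyp2b13 turned to 0.21 with the 75th-percentile shift, to 0.029 with cyclic loess and to 0.041 without soy 1. Its range with 1 array left out was -0.11 to 0.041. It was near background throughout, so these are differences of background signal and not measured changes. Cyp2a5 turned to -0.012 without soy 1 (range with 1 array left out -0.012 to 0.49). By brightest probe, the other 8 genes kept their direction under every alternative run. For Nr1i3, Cyp3a11, Cyp3a25 and Por, whose diets did not overlap, leaving out 1 array could not have changed it. With the replicate number as a block, 0 of the 10 genes and 78 of all probes passed. The deviations of same-numbered arrays correlated at 0.116, -0.057 and 0.106 over 27283 probes, and the arrays are treated as sharing only a number.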

Other observations

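The sex-biased and the zonated genes of the liver cut across these families. Over all genes 0.532% passed, 11723 of 22911 lay below 0 and the median was -0.0057. Of 19 female-biased genes on the array (20 listed), which include Cyp2b9, Cyp2b13, Cyp3a16 and Cyp3a41a, Acot4 alone passed (a rise of 1.20, limma adjusted p = 0.0457, with 0.71 and 0.195 on its second probe), the median was 0.04, and 5 of them were well above background on no array. Acot3 differed by 2.38 (0.0760). All 14 male-biased genes on the array were well above background on every array, none passed, and the median was 0.07. Of 16 pericentral genes, whose zone is also that of Cyp2a5 and Nr1i3, Nr1i3 alone passed and 12 lay below 0, with a median of -0.19. Oat, an enzyme of the cells around the central vein, differed by -1.28 (SE 0.20, limma adjusted p = 0.0593) and Slc1a4 by -0.94 (0.171). None of 14 periportal genes passed (median -0.12), with -1.13 for Sds and -0.84 for Pck1.

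Markers of other cell types gave no gene that passed. The medians were 0.08 for 15 Kupffer cell and leukocyte markers, 0.08 for 10 endothelial markers, -0.20 for 10 stellate cell markers, 0.13 for 8 cholangiocyte markers, -0.29 for 10 pancreas and gut markers and -0.07 for the 11 hepatocyte markers. The mean signal of the stellate cell markers was highest on control 1 (10.98, with the other 5 arrays between 10.27 and 10.53), the array on which Cyp2b9 and Cyp2b10 were also highest. The markers did not all have this order. Dcn, the brightest of them, read 15.07, 14.93 and 15.11 in control livers and was not highest on control 1. Col1a1 (9.91, 8.53 and 8.95 by its brightest probe) was. The mean of the Kupffer cell and leukocyte markers, of which Cd5l was the brightest, was 10.85, 11.14 and 11.52 in control livers and 11.03, 11.29 and 11.48 in soy livers, and 14 of the 15 were well above background on every array. The part of either list in the Cyp2b and Cyp3a11 values was not tested. All 10 pancreas and gut markers lay below 0, but only 4 of them were well above background on all arrays, and Vil1 was on none. Of the 8 cholangiocyte markers, 4 were well above background on all arrays. The shared direction and the medians of both lists therefore rest partly on background signal. Of the larger values that did not pass among the target genes, Gsta2, a glutathione transferase, differed by 2.30 (SE 0.38, limma adjusted p = 0.0652) and by 2.63 on slide 1 and 2.54 on slide 3.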
